A study of Schizosaccharomyces pombe with 36 samples.

Results

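The data describe polymerase usage around a single site near the right end of fission yeast chromosome I, where the RTS1 replication fork barrier had been inserted. Of the 36 libraries of the series, 2 came from strains with this insertion, labelled ChI-5234:TuraR, and they form 1 of the 16 pairs of a Pol δ and a Pol ε library. The site was unmodified in the controls, which were chosen by a rule on the labels, with earlier results of these data known. The rule took every pair that lacked rnh201 and carried its construct on chromosome II, giving 7 pairs or 14 libraries. The region examined ran 100 kb to each side of the insertion. All were Schizosaccharomyces pombe strains profiled by polymerase usage sequencing (Pu-seq), in which a mutated polymerase leaves ribonucleotides in the strand it makes and the resulting read ends are counted on each strand in bins of 300 bp. The deposited values were counts, with totals of 13474829 (δ) and 15021903 (ε) in the insertion pair and of 10214102 to 29561971 in the control libraries.

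Every strain compared was h- and carried rnh201::kan, ade6-704, leu1-32 and a ura4-D18 allele. The δ strain of each pair held cdc6-L591G and the ε strain held cdc20-M630F. The insertion pair had ChI-5234:TuraR with no change listed at rtf1 or at the native RTS1. A like construct on the other chromosome, ChII-8535:TuraR, was carried by 1 control pair, again with rtf1 and the native RTS1 untouched. The other 6 control pairs had the native RTS1 replaced (RTS1natural::Phleo). Of these, 1 held ChII-8535:Rura-10xrDNA, 1 added NAT:adh1-rtf1 to that construct, 1 held ChII-8535:tandemRTS1-ura4-10xrDNA with smt0, 1 held Rura::ChII-853542 with rtf1::nat, and 2 had a disrupted Ku70 gene (Ku70:leu2), of which 1 also carried rtf1::nat. The paper's strain list gives the Ku70:leu2 strains the construct ChII-8535:Rura-10xrRFB and smt0x. Each strain is represented here by 1 library, although the paper states that its Pu-seq experiments were repeated with independent isolates. No strain with the chromosome I insertion and rtf1 deleted was used here. The effect of the inserted DNA and that of a barrier working in it therefore cannot be told apart.

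RTS1 comes from the fission yeast mating-type locus and stops replication forks that reach it from only 1 side, when the protein Rtf1 is bound to it. A fork that stays stopped can be restarted by homologous recombination. At an ordinary fork the leading strand is the work of Pol ε and the lagging strand that of Pol δ. The strand on which each polymerase is found therefore tells which way forks moved, whereas a recombination-restarted fork is known to use Pol δ on both strands.

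The insertion lay between bases 5230932 and 5230933 of chromosome I in the RefSeq assembly ASM294v3, within the non-coding RNA gene SPNCRNA.1062 (5230242 to 5230965). On its left stood dad3 (5229799 to 5230900), a component of the DASH complex that couples kinetochores to microtubules, and smc5 (5226179 to 5229793), a subunit of the Smc5-Smc6 DNA repair complex. On its right was mek1 (5231140 to 5232566), a meiotic kinase. The files of the insertion pair held 3000 more bases on this chromosome than those of the controls. The reference sequence on either side of the junction follows, plus strand, with the 10 bases next to the junction in capitals. It is shown because all distances below are counted from this junction.
left flank, chrI:5230903-5230932: attaatatacttaatagtgtCAAGCCCAAT
right flank, chrI:5230933-5230962: CCTTCAAAATattggcaagtgtatgttttg

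The origin nearest to the junction lay on its right, in the window from 5233351 to 5233650, whose centre was 2.57 kb away. Fission yeast origins have no fixed motif and are rich in A and T. This window overlapped the non-coding RNA gene SPNCRNA.4359 (5233065 to 5233426), and its A+T content was 73.7%, above that of 96.7% of 41905 windows of the same length across the genome (median 64.0%). Its sequence is shown because forks arriving from this side meet the insert from the right. Capitals mark the 7 runs of at least 8 A or T, the longest of which had 33 bases.
right origin, chrI:5233351-5233650: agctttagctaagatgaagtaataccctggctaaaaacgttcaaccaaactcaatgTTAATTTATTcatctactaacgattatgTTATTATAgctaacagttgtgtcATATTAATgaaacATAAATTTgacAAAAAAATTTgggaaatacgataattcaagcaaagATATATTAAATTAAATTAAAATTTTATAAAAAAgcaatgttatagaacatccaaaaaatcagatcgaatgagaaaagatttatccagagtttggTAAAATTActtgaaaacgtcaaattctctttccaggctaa

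On the unmodified chromosome this origin sent forks leftwards across the site, and with the insert present most of the signal of those forks was lost to its left. Pol ε usage is the share of Pol ε in the 2 polymerases' counts on a strand, after each library was scaled to its total, and it stands for the leading strand of right-moving forks on Watson and of left-moving forks on Crick. From 0.6 to 10 kb left of the insertion, Crick Pol ε usage in the 7 control pairs had a lowest value of 73.8%, a median of 79.4% and a highest of 81.4%, with a mean of 78.7% ± 2.401 (SD, n = 7). In the insertion pair it was 23.1% (95% counting interval 22.3 to 23.9). The insertion pair lay 55.6 percentage points below the control mean and 50.7 points below the lowest control pair, so the groups did not overlap.

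The opposite strand moved the other way by a smaller amount. Watson Pol ε usage over the same 0.6 to 10 kb was 17.9% at lowest, 21.8% at the median and 28.2% at highest in the control pairs (mean 21.7% ± 3.74, SD, n = 7), and 59.2% (58.0 to 60.4) with the insertion. That was 37.5 points above the control mean and 30.98 points above the highest pair. Because Crick lost more Pol ε than Watson gained, Pol δ was in excess: its usage averaged over both strands was 58.8% (58.1 to 59.5) with the insertion, against 48.6% to 51.8% in the control pairs (mean 49.8% ± 1.18, SD, n = 7). All forks of the ordinary kind, moving in either direction, would put this average near 50%, as the controls did here. With 1 pair against 7 an exact permutation test cannot give a one-sided p below 0.125, so these single values are described by their distance from the control pairs.

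**Figure D1:**
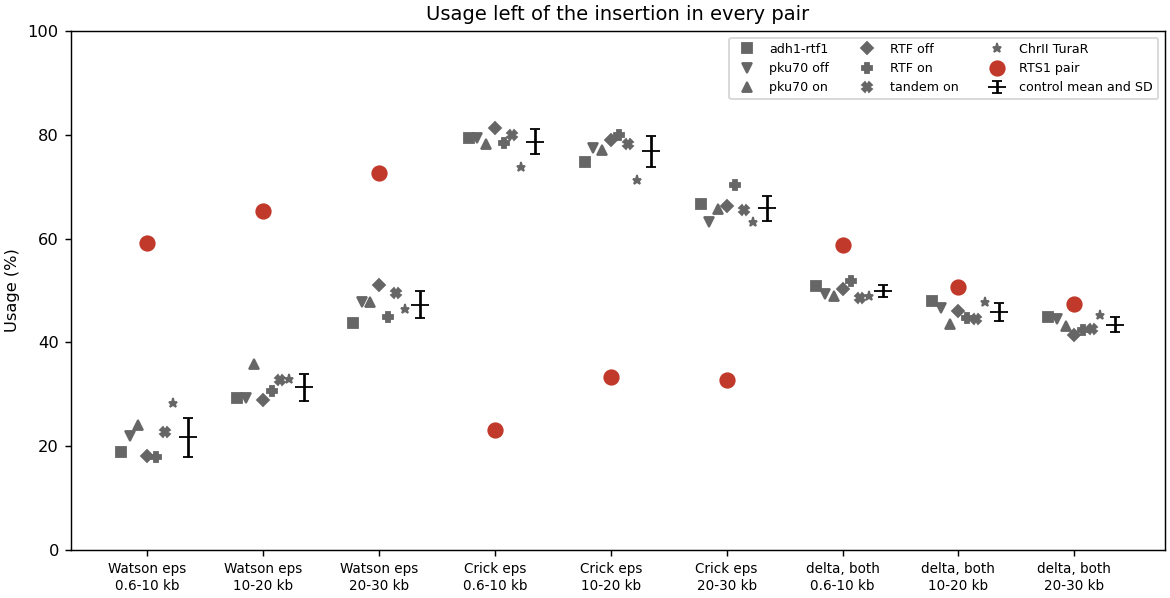
Watson Pol ε usage, Crick Pol ε usage and Pol δ usage averaged over both strands (percent) in blocks from 0.6 to 10, 10 to 20 and 20 to 30 kb left of the insertion. Red circles are the insertion pair (RTS1 pair), grey symbols the 7 control pairs (off: rtf1::nat, on: rtf1 intact) and bars their mean and SD; the red circles lie outside the grey symbols in all 9 columns.

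The individual control pairs had different constructs but like values here. Crick Pol ε usage was 79.5% in the pair with NAT:adh1-rtf1, 79.4% and 78.3% in the Ku70:leu2 pairs without and with rtf1, 81.4% in the pair with Rura::ChII-853542 and rtf1::nat, 78.4% in the ChII-8535:Rura-10xrDNA pair, 79.99% in the tandem pair and 73.8% in the ChII-8535:TuraR pair. The last of these, the pair most like the insertion pair in construct, was nearest to it and still 50.7 points away. Its Watson Pol ε usage of 28.2% was also the nearest, and its Pol δ average was 49.0%.

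The files of the insertion pair name their chromosomes in a form shared with the ChII-8535:TuraR pair and with 3 pairs whose constructs were at other places on chromosome I, but not with the other 6 control pairs. Over 14633 bins of chromosome II, count profiles of the insertion pair correlated with those 4 pairs at r = 0.575 to 0.905 and with the other 6 at 0.226 to 0.375. These bins are not independent and share base composition and mappability, and whether the naming marks a sequencing run is not given in the sources used here. The chromosome I pairs with constructs elsewhere had Crick Pol ε usage of 73.3%, 79.1% and 78.8% from 0.6 to 10 kb left of this site, Watson usage of 24.5%, 15.6% and 19.6%, and Pol δ averages of 51.1%, 52.6% and 50.8%. On all 3 measures they lay on the side of the controls, well away from the insertion pair.

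The separate counts showed which libraries carried the difference. In CPM per kb (counts scaled to each library's total), from 0.6 to 10 kb left of the insertion, Crick Pol ε fell outside the control range at 18.6 against 51.1 to 75.6, which is 0.282 of the control mean. Crick Pol δ was at 61.8 against 15.3 to 19.8, or 3.49 times the control mean. On Watson, Pol δ was at 20.7 against 48.7 to 62.3 and Pol ε at 30.0 against 12.7 to 19.1. All 4 library and strand combinations thus lay outside their control ranges, and the ratio to the control mean was furthest from 1 for the Crick strand in both libraries.

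**Figure D2:**
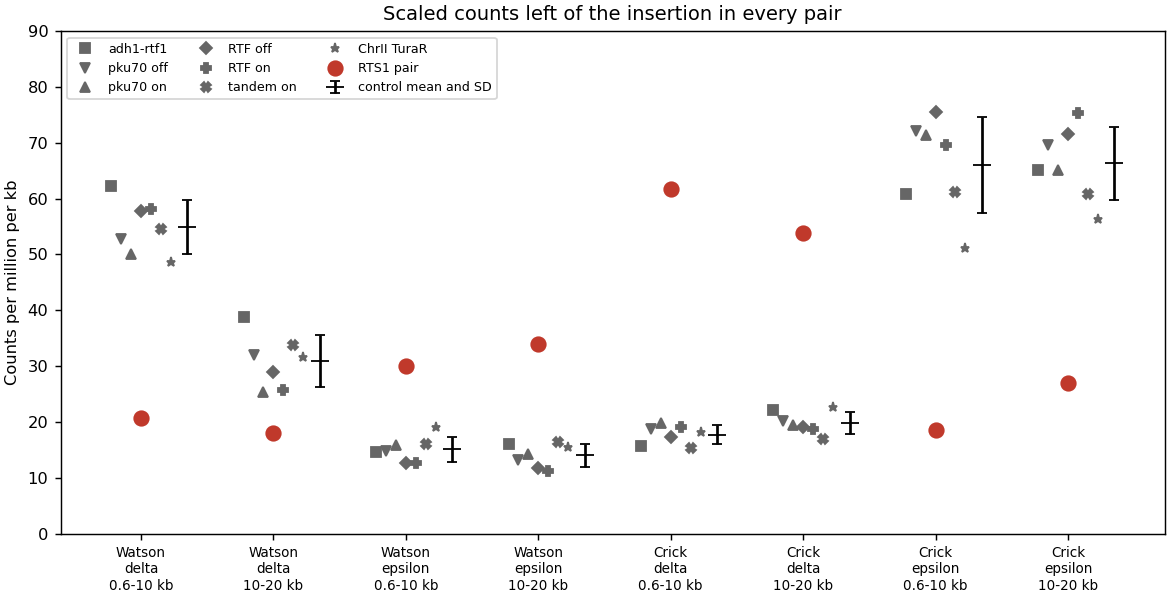
CPM per kb for each strand and polymerase from 0.6 to 10 and from 10 to 20 kb left of the insertion, with red circles for the insertion pair (RTS1 pair), grey symbols for the 7 control pairs and bars for their mean and SD. From 0.6 to 10 kb the insertion pair is below the controls for Watson δ (20.7) and Crick ε (18.6) and above them for Watson ε (30.0) and Crick δ (61.8).

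The switch lay in the inserted DNA or at its right end. Positions within the insert are given as kb from the junction in the coordinates of the insertion pair's own files. On Crick, Pol ε usage was 15.6% in the bin centred 2.42 kb from the junction, 41.9% at 2.72 kb and 82.6% at 3.02 kb. The level halfway between that on the left (23.1%) and that on the right of the insert (87.4%) was crossed at 2.84 kb, with a counting interval of 2.799 to 2.889 kb. Reads from the RTS1 sequence itself may be shared with the native RTS1 on chromosome II, which this strain kept. Bins of the inserted RTS1 had 58.7% Pol ε on Watson and 16.9% on Crick, and the native copy, read in the same orientation, 64.3% and 18.6%. These values cannot be given to 1 copy, so the switch is bounded only by the nearest bins outside RTS1, at 1.82 kb (25.0%) and 3.02 kb (82.6%).

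The rest of the insert, in 6 bins from 0.168 to 1.97 kb, had more Pol δ than any 3-kb window of the insertion pair in the 200 kb. Pol ε usage there was 31.1% on Watson (29.1 to 33.1) and 21.99% on Crick (20.1 to 24), so that Pol δ averaged 73.5% over both strands (72.1 to 74.9). The controls have no such DNA at this place, and no comparison was possible. The paper's methods name ura and ter sequences in this construct besides RTS1. Elsewhere the paper takes Ter sequences from the fork barrier of the ribosomal DNA. Reads from such a part may therefore be shared with the ribosomal DNA, which was not tested. On the side of the near origin, 0.6 to 2.4 kb right of the junction, Crick Pol ε usage was 87.4% (controls 75.1% to 88.0%), Watson usage was 9.90% (8.85% to 24.5%) and the Pol δ average was 51.3% (47.6% to 53.3%). These 3 lay within the control range, but the right-moving share they give was 11.2%, below the control pairs' 12.1% to 24.7%. In the 3-kb windows, where the first on the right runs from 0.6 to 3 kb, Watson usage was also below the range (12.4% against 16.03% to 26.7%) and the Pol δ average above it (52.3% against 46.1% to 51.6%).

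**Figure D3:**
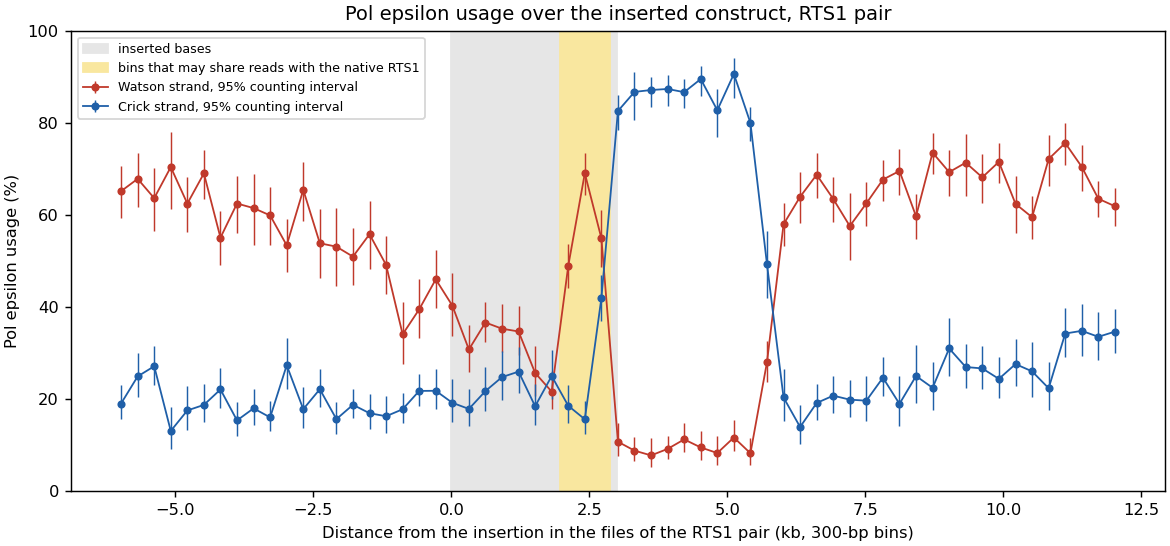
Pol ε usage (percent, bars for 95% counting intervals) on Watson and Crick in 300-bp bins of the insertion pair, by distance from the junction in its own files (kb). Grey shading marks the inserted bases and yellow the bins that may share reads with the native RTS1; Crick usage climbs from 15.6% to 82.6% between 2.42 and 3.02 kb.

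Moving left from the junction, the excess of Pol δ faded while the loss of Pol ε on Crick went on. The Pol δ average was 64.6% in the first window (0.6 to 3 kb; controls 46.9% to 53.6%), 58.5% from 3 to 6 kb, 55.1% from 6 to 9 kb, 54.5% from 9 to 12 kb and 52.9% from 12 to 15 kb. It was above all 7 control pairs in 9 unbroken windows of 3 kb, as far as 27 kb, and inside their range from 27 to 30 kb. Across the rest of the genome, however, 34.2% of 4060 such windows also had a Pol δ average above the control range. That count left out chromosome II from 840 to 900 kb and from 2089 to 2149 kb, around its construct site and the native RTS1. In those 4060 windows the insertion pair's excess over the control mean had a median of 1.92 points, with a central 95% from -3.15 to 5.79. Set beside that spread, the differences of 14.4, 8.16 and 6.95 points in the first 3 windows lay beyond its upper end. The highest single difference elsewhere was 14.5 points, above that of the first window. The difference from 12 to 15 kb lay narrowly beyond the upper end of the spread, at 6.26. Those of 9 to 12 kb (4.40) and beyond 15 kb (3.89 to 5.41 as far as 27 kb) lay inside it.

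Next to the insertion, Watson Pol ε usage was lower than a few kb further left. It was 52.1% from 0.6 to 3 kb and 63.5% from 3 to 6 kb, whereas Crick usage was low in both windows, at 18.6% and 19.4%. The control mean on Watson was also lower close in, at 18.6% and 21.5%. Watson usage thus exceeded it by 33.5 and 42.0 points. From 12 to 15 kb the excess was again 33.5 points, so it was not smallest next to the insertion. In single bins, Watson usage was 34.04% at 0.88 kb left of the junction and 65.2% at 5.98 kb. The smoothed Watson profile crossed 50% at 1.41 ± 0.594 kb left of the junction (counting interval), in smc5. In the control pairs it crossed between 22.6 and 31.9 kb (mean 27.7 ± 3.58, SD, n = 7), around pyp2, a tyrosine phosphatase of the stress MAP kinase pathway, where their profiles are flat and the crossing is loosely fixed.

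**Figure D4:**
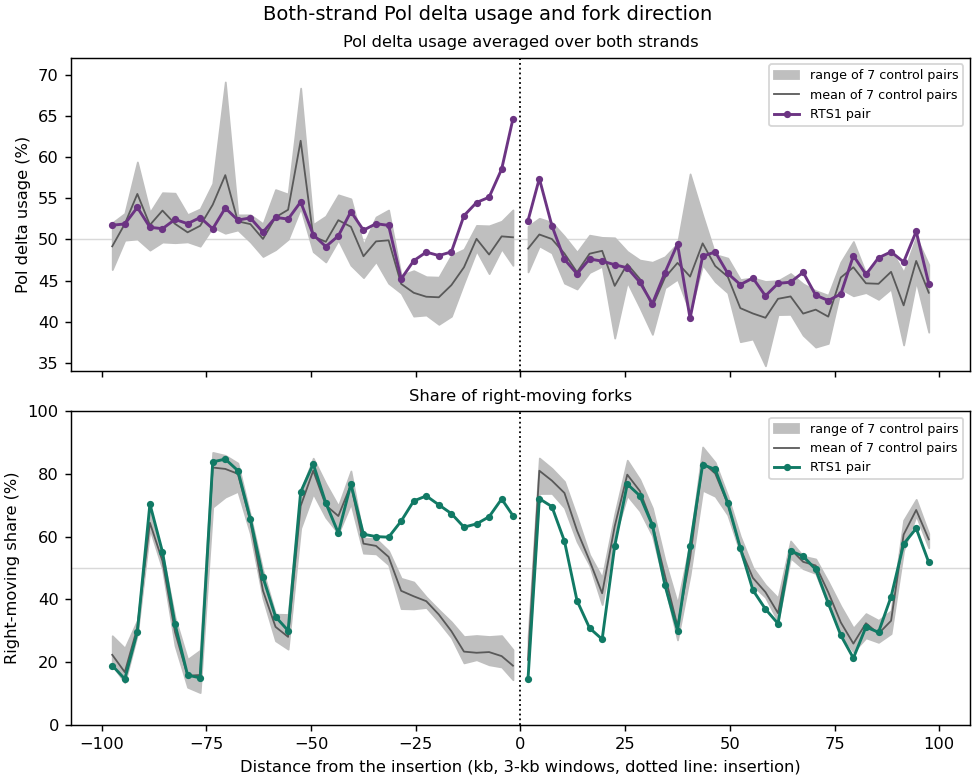
Pol δ usage averaged over both strands (upper panel) and right-moving share (lower panel), both in percent, in 3-kb windows by distance from the insertion (kb). The coloured line is the insertion pair (RTS1 pair), the grey line and band the mean and range of the 7 control pairs. On the left, the Pol δ line climbs above the band towards the insertion, to 64.6% in the first window.

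The strand exchange reached further than the excess of Pol δ. Crick Pol ε usage was below the control range in 13 of 13 windows within 39 kb on the left, while 21.7% of windows elsewhere in the genome were. Watson usage was above it in 11 unbroken windows, to 33 kb, against 4.43% elsewhere. The right-moving share, the mean of Watson Pol ε and Crick Pol δ usage, was above the range in 13 of 13 windows, to 39 kb, against 12.3% elsewhere. This share reads as fork direction only for forks of the ordinary kind. Synthesis with Pol δ on both strands counts through Crick Pol δ but not through Watson Pol ε, whichever way the fork moved. It raises the share where it replaces left-moving ordinary forks and lowers it where it replaces right-moving ones. Where Pol δ was in excess, the share therefore cannot be read as direction alone. The difference in right-moving share was 47.9 points in the first window, 50.2 from 3 to 6 kb, 33.6 from 21 to 24 kb, 6.28 from 30 to 33 kb and 3.01 from 36 to 39 kb, so most of it was gone by 39 kb. Set beside the central spread of differences elsewhere, as for Pol δ, the reach was shorter. That spread was -9.31 to 6.03 points on Crick, -9.51 to 5.95 on Watson and -5.98 to 5.93 for the share. Crick and Watson differences lay beyond it to 30 kb (-22.8 and 21.7 from 27 to 30 kb). Inside it lay Crick from 30 to 39 kb (-8.09 to -5.11) and Watson from 30 to 33 kb (4.47). The share's difference was narrowly beyond it from 30 to 33 kb and inside it from 33 to 39 kb. Beyond 48 kb on the left, Crick was below the control range in 2 of 17 windows, Watson above it in 2 of 17 and the Pol δ average above it in 0 of 17.

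In blocks of 10 kb the same course was seen on each strand. From 10 to 20 kb, Watson Pol ε usage was 65.4% against 28.8% to 35.9%, Crick usage was 33.3% against 71.4% to 80.1% and the Pol δ average was 50.6% against 43.5% to 48.01%. From 20 to 30 kb, the values were 72.7% against 43.7% to 51.0%, 32.7% against 63.1% to 70.3% and 47.3% against 41.3% to 45.2%. None of these 3 measures overlapped with the controls in either block with each library scaled to its total. Blocks of this size were not counted elsewhere in the genome. Of the 3-kb windows there, 34.2% had a Pol δ average above the control range and 21.7% a Crick usage below it. With scaling by the median bin, however, the Pol δ average from 10 to 20 kb was level with the highest control pair and its excess over the control mean fell from 4.74 to 2.88 points, and with each pair's genome median taken off the excess was 2.66 points. From 30 to 40 kb Crick was the only one of them outside, at 37.8% against 41.9% to 49.7%. That stretch holds the retrotransposons Tf2-7 and Tf2-8 (5191060 to 5199712), copies of an element repeated elsewhere in the genome, so reads there may come from other copies. From 40 to 60 kb and from 60 to 100 kb, all 3 measures fell within the control range.

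**Figure D5:**
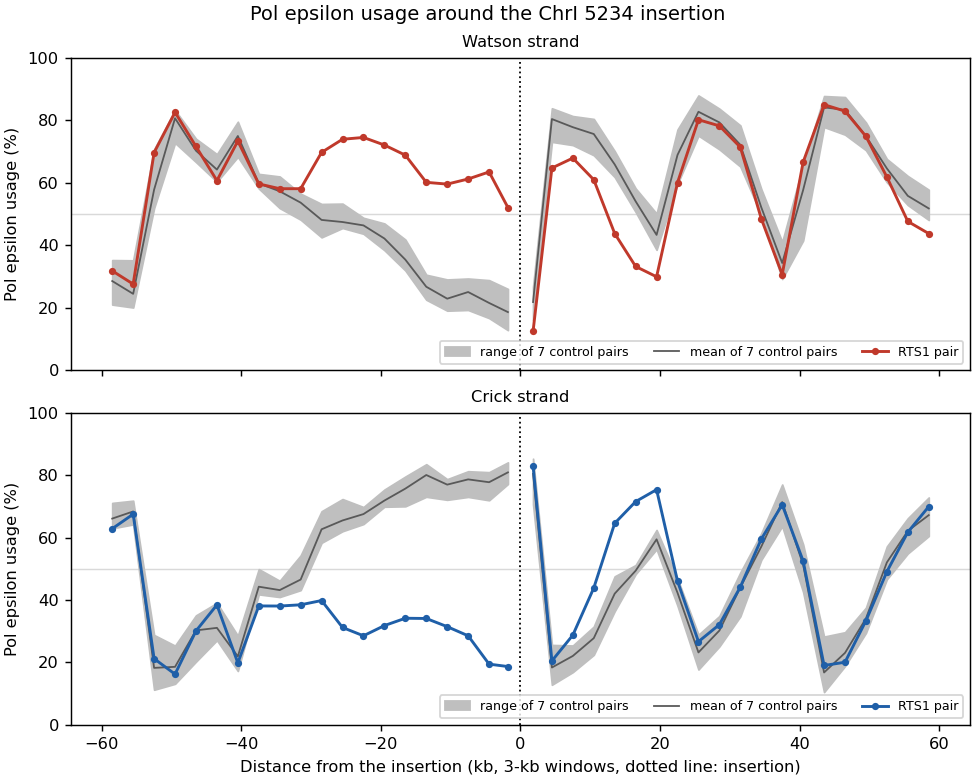
Pol ε usage (percent) on Watson and Crick in 3-kb windows by distance from the insertion (kb, 60 kb to each side). The coloured line is the insertion pair (RTS1 pair), the grey line and band the mean and range of the 7 control pairs; on the left the coloured Crick line runs below the band as far as 39 kb.

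Counts in 3-kb windows were also tested with edgeR's quasi-likelihood test of the polymerase by site interaction. It asks whether the ε to δ ratio of the insertion pair differed from that of the control pairs. The test covered the genome apart from the stretches of chromosome II left out above, which hold the controls' construct site and the native RTS1. Of 64 strand windows in the 100 kb on the left, 10 passed at an adjusted p of 0.05, namely 5 of 32 on Watson, all with more Pol ε, and 5 of 32 on Crick, all with less. Outside the 200 kb region, 0% passed, that is 0 of 8124 by edgeR and 1 by DESeq2, with 92 at an unadjusted p under 0.05. The lowest edgeR adjusted p there was 0.289, for a Crick window of chromosome II from 4440001 to 4443000. The Watson windows ran without a gap from 1.93 to 16.9 kb, with log2 changes in the ε to δ ratio of 2.24 to 2.795. The Crick windows ran from 1.93 to 13.9 kb, with changes of -3.89 to -2.71, and a further window from 22.9 to 25.9 kb, over cid1, a terminal uridylyltransferase, had a change of -1.97 (edgeR adjusted p = 0.0357). The strongest call was the Watson window from 4.93 to 7.93 kb, with a change of 2.795 (edgeR adjusted p = 2.06e-05).
Among the called windows lie part of ptr1 (5208640 to 5218739), a HECT-type ubiquitin ligase, and smc5. Because there was 1 insertion pair, the test takes its spread from the control pairs, and its p-values measure the spread between libraries of different strains, with 1 library of each. Without the NAT:adh1-rtf1 pair 14 windows passed and without the Ku70:leu2 pair with rtf1 intact 7 did.

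On the right, beyond the near origin, forks also differed from those of the controls. The origin itself lay in the same place in all pairs. The right-moving share rose over it by 61.1 points in the insertion pair, from 11.2% at 0.6 to 2.4 kb to 72.3% at 3.6 to 6 kb, and by 49.8 to 73.4 points in the controls (mean 65.6 ± 7.86, SD, n = 7), so the rises overlapped. From 3.6 to 10 kb the right-moving share was 69.2% against 73.4% to 82.8%, and from 10 to 20 kb it was 37.4% against 54.1% to 58.7% (mean 56.1% ± 1.84, SD, n = 7). The latter was 18.7 points below the control mean. The Pol δ average was above the control range in the first 2 windows on this side, with 57.4% from 3 to 6 kb (controls 49.2% to 52.6%). There the difference from the control mean was 6.78 points, beyond the upper end (5.79) of the central spread elsewhere. From 0.6 to 3 kb it was 3.41, inside that spread. The average was above the control range in 7 of 33 windows in all, a lower share than elsewhere in the genome. On single strands from 10 to 20 kb, Watson Pol ε usage was 40.8% against 52.3% to 61.1% and Crick usage was 66.0% against 39.2% to 46.6%.

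The point on the right where as many forks moved left as right was nearer to the site with the insertion. It was at 11.8 kb, in SPAC14C4.07, against 16.6 to 17.5 kb in the control pairs (mean 17.05 ± 0.323, SD, n = 7), at the edge of vtc2, a subunit of the polyphosphate polymerase complex. The 3 chromosome I pairs with constructs elsewhere had it at 17.3 to 18.2 kb, on the side of the controls. Of 64 strand windows in the 100 kb on the right, 1 passed the edgeR test, the Crick window from 5247001 to 5250000 over vtc2, with more Pol ε (log2 change 1.39, edgeR adjusted p = 0.00346).

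In 3-kb windows the right-moving share was below the control range in 8 unbroken windows on the right, to 24 kb, against 13% of windows elsewhere, and Watson Pol ε usage in 7, to 21 kb, against 22.2%. Crick usage was above it in 5 of 13 windows within 39 kb, against 4.58%. Beyond 48 kb on the right, however, the right-moving share was still below the control range in 7 of 17 windows, so a departure on this side was not limited to the stretch next to the insertion.

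The origins around the site were located in the mean profile of the controls as rises of the right-moving share, and 9 were found in the 200 kb. On the left the nearest was a shallow one at 43.3 kb from the insertion (5187451 to 5187750, A+T content 65.3%), with a rise of 11.2 points in the insertion pair and 4.51 to 16.4 in the controls. The next, at 53.5 kb, was strong, with 53.5 points against 36.8 to 58.6, and so was that at 75.1 kb, with 65.8 against 44.4 to 69.9. At these the insertion pair was within the control range. At 91.0 kb it was above, with 56.1 against 38.8 to 50.9.

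On the right, the second origin had a larger rise with the insertion than in the controls. At 22.1 kb, just past the stretch with a lower right-moving share, the rise was 50.6 points with the insertion and 30.6 to 42.2 in the controls (mean 36.8 ± 3.68, SD, n = 7), and the groups did not overlap. That was not particular to this origin, since the insertion pair was also above the control range at 91.0 kb on the left. The chromosome I pairs with constructs elsewhere had 31.6, 43.0 and 37.5 points at 22.1 kb, so the pair with 43.0 was above the range too. The origins at 40.7 kb (45.3 points against 27.6 to 49.0) and 91.1 kb (29.7 against 29.1 to 42.6) were within the control range, and the weak one at 62.9 kb was just above it (23.2 against 11.6 to 22.9). The 9 locations agreed to within 0.3 kb between the insertion pair and the control mean, except for the shallow left one, which the insertion pair had at 42.1 kb.

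A small rise was found in the insertion pair alone, 28.6 kb to the left beside pyp2, where the right-moving share went up by 10.7 points and the controls had changes of -4.86 to 2.45. It was picked out from the insertion pair's own profile, so it is given as a description with no test.

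The genotypes in the labels were checked on the counts over the deleted genes. Relative to the flanking bins, rtf1 was covered at 0.0346 to 0.294 in the 4 libraries labelled rtf1::nat and at 0.53 to 1.05 in the other 12, and rnh201 was at 0.0927 to 0.305 in all 16. Coverage of pku70 was 0.686 to 0.779 in the 4 Ku70:leu2 libraries and 0.758 to 1 in the others, so that label was not separated by coverage.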

How the data were processed

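Strains carried a Pol δ or Pol ε mutation that raises ribonucleotide incorporation. Per the labels and methods, the authors aligned reads with Bowtie2 (version and genome build not given in the sources used here), and deposited counts of read ends per strand in 300-bp bins as raw counts. Here, each library was divided by its total, and Pol ε usage was ε / (δ + ε) of the scaled counts summed over a window, with no bin filter (leaving out bins under 0.25 or over 4 times the median was an alternative). The junction was placed by matching the study's primers (20-base words) to ASM294v3, and the 3000 added bases were taken out of the insertion pair's coordinates. Bins within 0.6 kb of the junction were left out. Windows elsewhere did not cover chromosome II from 840 to 900 kb and from 2089 to 2149 kb, or chromosome III from 109 to 121 kb. Profiles were smoothed over 11 bins for crossings and over 3 for the Crick switch, and a rise was the difference in mean right-moving share between the 11 bins on either side (at least 10 points).

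Intervals are 95% Wilson intervals for single strands and normal approximations for averages and positions, and cover counting error only, since reads are not independent molecules. edgeR 4.0.16 (R 4.3.3) was fitted on counts of 8252 windows of 3000 bp from 16 libraries with at least 10 counts per library, which removed no window, with Benjamini-Hochberg adjustment at 0.05. DESeq2 1.42.0 was an alternative. The usage and window tests were tested on simulated data. Other calculations used Python 3.11.15, numpy 2.4.6, pandas 2.3.3, and plots matplotlib 3.10.9. Genes named were those next to the insertion, at crossings or at origins, the deleted genes and at most the 5 windows elsewhere with the lowest adjusted p; ptr1, cid1, vtc2, SPAC14C4.07 and the retrotransposons were added after their values were seen. The site, members and lists were chosen with earlier results of these data known. Libraries of rnh201-RED strains and Pol α served only as an alternative or were not used.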

Additional observations from a re-analysis of the deposited data

Results flagged for a closer look

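Of 50 sets of 7 control values, 6 held a pair far from the other 6 by Dixon's gap criterion, which picks out about 1 set in 20 by chance, and the sets overlap. The ChII-8535:TuraR pair was set apart in 4 of them. Its Crick Pol ε usage was 73.8% from 0.6 to 10 kb on the left, with the others at 78.3% to 81.4%. From 0.6 to 2.4 kb on the right its Crick usage was 75.1% (others 83.3% to 88.0%) and its right-moving share 24.7% (others 12.1% to 17.1%). Its Watson usage from 3.6 to 10 kb on the right was 72.4% (others 78.2% to 82.3%). The pair with NAT:adh1-rtf1 was set apart in the other 2, with a Crick usage of 49.7% from 30 to 40 kb on the left, over the retrotransposons (others 41.9% to 44.5%), and a Watson usage of 61.8% from 40 to 60 kb (others 52.0% to 55.3%).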

How the results depend on the processing

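Of 190 alternatives to the 11 results, 163 counted as unchanged, 27 moved and 0 changed direction. For differences, unchanged meant a shift smaller than the SD among the control pairs. For the switch the limit was its counting interval, and for origins the SD of their location or 300 bp, if larger. For called windows it was a count of similar size. Origin positions and window counts could not change direction by construction, so the 0 says nothing about them. Differences are the insertion pair minus the control mean. Leaving out 1 control pair gave, from 0.6 to 10 kb on the left, Crick -56.4 to -55.1, Watson 36.9 to 38.6 and Pol δ 8.81 to 9.34 points, and Pol δ from 10 to 20 kb 4.35 to 5.09. It gave a right-moving share of -19.1 to -18.3, a Watson crossing of -27.2 to -25.7 kb, a right crossing of -5.31 to -5.17 kb, origins at -43.3 and 2.57 kb, and 7 to 14 called windows. With 5 rnh201-RED pairs as controls, Crick was -53.0, Pol δ 6.94 and 2.96 (10 to 20 kb), and the left origin -53.2 kb. With the ChII-8535:TuraR pair alone, chosen after seeing the data, Crick was -50.7, Watson 30.98, Pol δ 2.77 from 10 to 20 kb, and the left origin -53.2 kb. With pairs of the same chromosome names, likewise chosen, Crick was -53.1, Pol δ 2.69 from 10 to 20 kb, the right-moving share -21.5, the right crossing -5.87 kb and the left origin -53.5 kb. Scaling by the median bin gave Pol δ 7.46 and 2.88, and subtracting each pair's genome median (added later) 6.93 and 2.66. A 5 kb window gave Crick -61.6 and Pol δ 12.5. Smoothing over 5 bins gave a Watson crossing of -21.8 kb, a right crossing of -4.91 kb, a switch at 2.92 kb and a left origin at -41.8 kb, and over 21 bins the left origin was at -53.5 kb. DESeq2 called 16 windows on the left, 1500-bp windows 16 of 132, and pair as a term (added later) 18. Where the left origin is given at -53.2 or -53.5 kb, the shallow near one was no longer picked and the next stood in its place. Scaled by the median bin, the Pol δ average from 10 to 20 kb no longer stood above the highest control pair. The cause was not tested. At this depth, counting error in a 10-kb window was near 1 point, below the spread among control pairs.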
